A study of Zea mays with 2 samples.

Results

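Mesophyll (MS) cells of the maize leaf were chosen by measured UMI counts, as the barcodes that passed the study's filter and carried more UMIs (unique molecular identifiers, 1 per captured transcript molecule) of 3 mesophyll genes than of 4 bundle sheath genes. To pass, a barcode needed more than 1800 but fewer than 7000 genes with a UMI, and chloroplast and mitochondrial transcripts had to stay below 4% and 0.75% of its UMIs. Among kept barcodes, a member had more UMIs of PEP1, CAH1 and MDH6 together than of ME1, RBCS1, RBCS2 and PCK1 together, and at least 10 UMIs of the mesophyll genes. There were 7278 members among 7374 kept barcodes and 13444 barcodes in all. Library 2 held 3310 members of 3339 kept barcodes (99.1%) and library 1 held 3968 of 4035 (98.3%).

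Both libraries came from plants of the B73 inbred line with no treatment or mutation. Each was made from protoplasts of the distal 6 cm of leaf 2, pooled from 6 seedlings at the V2 stage, and sequenced from the 3′ ends of transcripts. The plants of the 2 libraries were grown at different times, so the libraries are replicates of 1 group and growth time cannot be told apart from library. Protoplasts are cells freed by enzyme digestion of the wall, and mesophyll cells are released more readily than sheath cells. The values are those of digested, released cells, not of the intact leaf.

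In the C4 pathway of maize, mesophyll cells fix carbon first. Carbonic anhydrase makes bicarbonate, phosphoenolpyruvate carboxylase (PEP1) attaches it to phosphoenolpyruvate, and a chloroplast malate dehydrogenase (MDH6) reduces the product to malate, which passes to the bundle sheath. The sheath releases the carbon through malic enzyme (ME1) and refixes it with Rubisco (RBCS1 and RBCS2). Pyruvate orthophosphate dikinase (PDK1) then regenerates phosphoenolpyruvate in the mesophyll. Mesophyll chloroplasts carry abundant photosystem II, while sheath chloroplasts of maize are poor in it.

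The typical member of library 2 carried 9448 UMIs from 2648 genes, and that of library 1 carried 19083 UMIs from 4064 genes (medians). Their UMIs summed to 34373828 in library 2 and 79436195 in library 1. The median share of UMIs from the chloroplast genome was 1.18% in library 2 and 1.81% in library 1. The libraries shared 11 barcodes over all barcodes and 5 among members. Apart from the study's upper limit on detected genes, doublets were not removed.

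The rule chose the cells by 7 genes, so these are given as a description with no test. PEP1 had a median of 49 UMIs per member in library 2 (13 at the 5th and 132 at the 95th percentile) and 60 in library 1 (20 and 151). CAH1 had a median of 52 UMIs in library 2 (16 and 120) and 129 in library 1 (38 and 259). MDH6 had a median of 20 UMIs in library 2 (5 and 60) and 38 in library 1 (12 and 95). Every member of both libraries held a UMI of PEP1 and of CAH1. The class is a range of a score, but few cells lay near its limit. Of kept barcodes with more mesophyll than sheath UMIs, 3 in library 2 and 10 in library 1 fell short of 10 mesophyll UMIs, the nearest with 8 and 9 UMIs, against 26 and 4 members with 10 to 19. The limit on detected genes lay in a denser stretch. In library 2, 208 members had up to 100 genes more than the limit and 204 barcodes that met the other limits lay at it or up to 100 below, against 25 and 18 in library 1.

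Mesophyll genes outside the rule went with the label. The study lists PDK1, PDRP1 and GLYK as enriched in mesophyll clusters of these same data, so they are no independent support for it. After each cell was thinned at random to 5000 UMIs, PDK1 was found in 100% of members in library 2 and 99.8% in library 1, with means of 44.03 and 26.1 UMIs, though 100% and 96.4% of sheath cells also held a UMI of it (means 11.6 and 6.11). PDRP1, which encodes the regulatory protein of that enzyme, was found in 99.5% of members in library 2 and 99.8% in library 1. GLYK, for glycerate kinase, the last enzyme of photorespiration, was found in 94.0% and 90.1%. GLN4, a glutamine synthetase, was near its detection limit, with 62.1% and 57.7% of members holding a UMI. In sheath cells, the kept barcodes with more sheath than mesophyll UMIs (25 cells in library 2 and 55 in library 1), a UMI of PDRP1 was found in 8.00% and 9.09%, and of GLN4 in 48% and 23.64%. GLN4 therefore separated the classes poorly at this depth.

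Sheath transcripts were present at a low level. The 4 sheath genes of the rule together made up 158 CPM (UMIs of a gene scaled to a common total per library) in members of library 2 and 154 CPM in library 1, against 70048 and 54752 CPM in sheath cells. A UMI of RBCS1 was found in 31.5% of thinned members in library 2 and 31.97% in library 1, and one of ME1 in 3.21% and 4.15%. Unthinned, those shares were 44.6% and 60.8% for RBCS1, at the median depths given above. In the other direction, 24% of thinned sheath cells in library 2 and 21.8% in library 1 held a UMI of PEP1. RNA free in the suspension can add UMIs to such shares, and its part was not tested. Sheath genes made up over 20% of the 7 genes' UMIs in 11 members of each library. The sucrose transporter genes SWEET13a, SWEET13b and SWEET13c were nearly absent, with 2.94 CPM together in library 2 and 1.06 CPM in library 1. SUT1, a sucrose transporter of companion cells, stood at 0.058 CPM in library 2 and 0.53 CPM in library 1.

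The light reactions of photosynthesis led the profile. A 3′ library counts each molecule once whatever its length, so levels of different genes can be set beside each other as CPM. The gene with the highest mean level was Zm00001d049387, described by the study as photosystem II3, at 21954 CPM in library 2 and 17056 CPM in library 1. Zm00001d000270, which has no description, followed with 10287 CPM in library 2 and 19861 CPM in library 1. It was the leading transcript of library 1 and the third of library 2. Among the 20 leading genes were 4 further photosystem II genes, for the W protein of the reaction center (Zm00001d043299) and for the extrinsic subunits of the water-splitting complex (Zm00001d036535, Zm00001d018779 and Zm00001d006540), 3 photosystem I genes (Zm00001d038984, Zm00001d018797 and Zm00001d019518) and 2 antenna genes (Zm00001d026599 and Zm00001d021784). The oxygen evolving complex 33kDa subunit (Zm00001d036535) had 8643 CPM in library 2 and 7814 CPM in library 1.

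Carbon metabolism supplied 4 more of the 20. PDK1 stood at 8818 CPM in library 2 and 5231 CPM in library 1, above the rule gene CAH1 at 5624 and 6822 CPM. A further carbonic anhydrase gene, Zm00001d044096 (carbonic anhydrase3), had 7684 CPM in library 2 and 4637 CPM in library 1. Glyceraldehyde phosphate dehydrogenase B1 (Zm00001d027488), a subunit of the enzyme that reduces the product of carbon fixation to triose phosphate, had 8477 and 7311 CPM. The remaining leaders were Zm00001d021955, with no description, and genes outside photosynthesis. Thioredoxin h homolog2 (Zm00001d019034), of a family of cytosolic redox proteins, had 14811 CPM in library 2 and 11555 CPM in library 1, which made it the third transcript by mean level. Glutathione peroxidase (Zm00001d002704) had 4692 and 5928 CPM. Both 12-oxo-phytodienoic acid reductases of the leading 20, Zm00001d044908 and Zm00001d044906, whose family includes the peroxisomal enzyme that reduces 12-oxo-phytodienoic acid on the way to jasmonate, lay between 4210 and 5433 CPM.

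**Figure D1:**
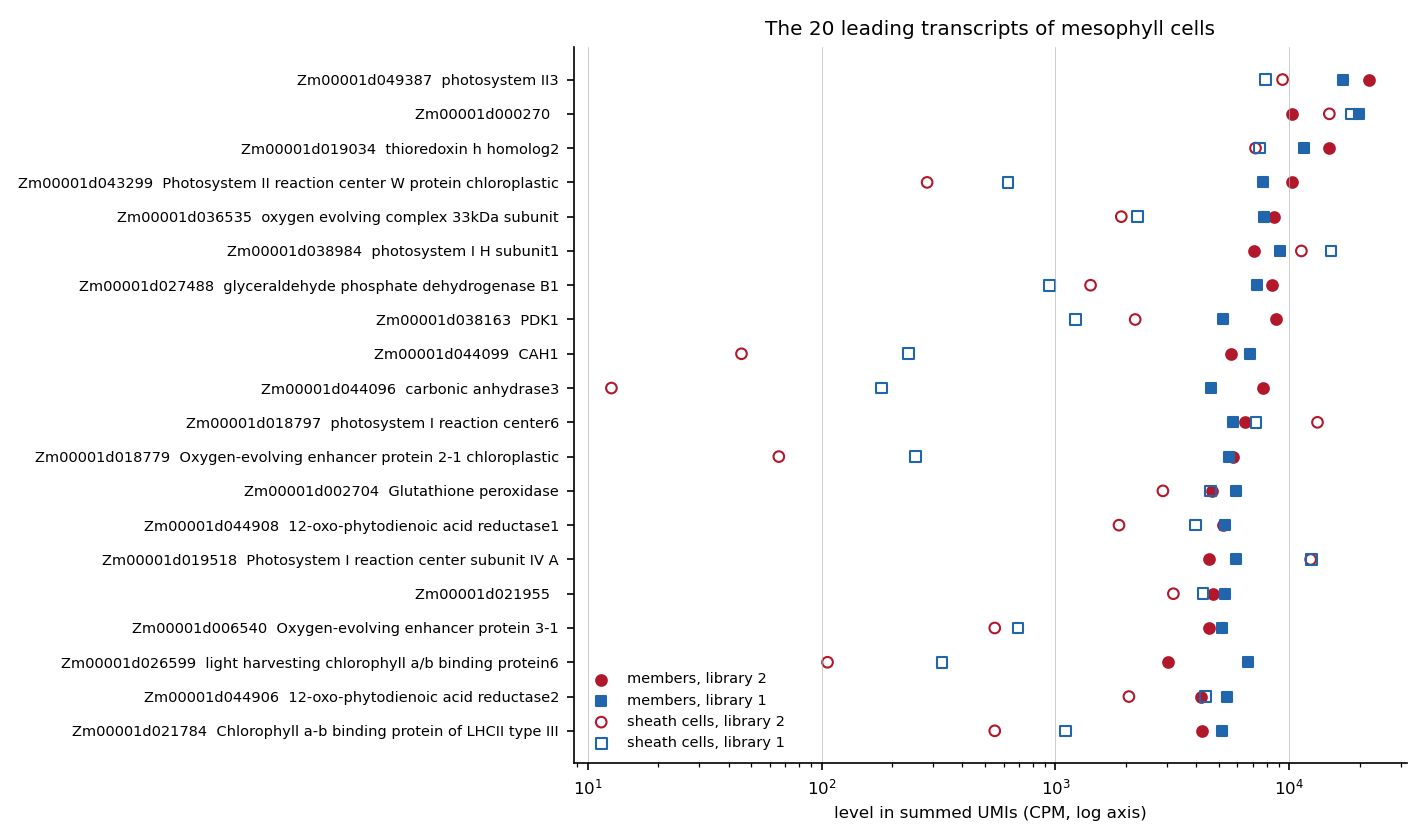
Level of the 20 leading transcripts in CPM of summed UMIs (log axis), filled symbols for members and open symbols for sheath cells, circles for library 2 and squares for library 1. Both carbonic anhydrase genes and the photosystem II W gene lie far to the right of their sheath values, while the 3 photosystem I genes have sheath values above those of members.

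The 2 libraries gave much the same leaders. Of the 20 leading genes of each library, 16 were shared. The 10 leading genes took 10.4% of UMIs in library 2 and 9.99% in library 1, and 271 and 270 genes sufficed for 50% of all UMIs. Genes of photosystem II made up 6.64% of UMIs in library 2 and 6.05% in library 1, photosystem I 3.63% and 4.12%, the antenna 3.54% and 4.90%, and electron transport with the chloroplast ATP synthase 0.88% and 0.86%. The 3 rule genes took 1.37% and 1.25%, and the 8 C4 and triose phosphate genes outside the rule 1.99% and 1.38%. Outside photosynthesis, cytosolic ribosomal proteins (226 genes) took 1.30% and 1.52%, wound and defence genes (68) 1.095% and 1.16%, glutathione transferases (19) 0.81% and 1.04%, and heat shock proteins and chaperones (46) 0.77% and 0.62%. Most of these lists were drawn from the study's marker tables of cell clusters in these data, so their levels here are no independent evidence of their importance. Nor are their spread, shared changes between members and differences from sheath cells, given below, since marker genes are picked for differing between clusters.

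A ratio of CPM compared library 2 with library 1. A test was not possible, because a single library stood on each side. Of 2939 genes with at least 50 CPM in either library, 200 (6.81%) were over 2-fold higher and 172 (5.85%) over 2-fold lower in library 2. With TMM scaling in place of the total, the split was 306 higher against 120 lower, and the median log2 ratio was 0.20 with TMM against 0.04 with the total. The 27 genes of plastid ribosomal proteins, which build the translation machinery of the chloroplast, had a median log2 ratio of 0.78, with 7 of them over 2-fold higher and 0 over 2-fold lower. Of 11 aquaporin genes (water channels) at 10 CPM or more, 6 were over 2-fold lower and 0 over 2-fold higher, with a median of -1.02. Metallothioneins, small metal-binding proteins, had 4 of 8 genes over 2-fold higher, and chlorophyll synthesis had 2 of 9 over 2-fold lower. Of 63 wound and defence genes, 17 were over 2-fold lower and 2 over 2-fold higher, with a median of -0.24. Of 210 cytosolic ribosomal protein genes, 12 were over 2-fold lower and 0 over 2-fold higher. These list counts take genes at 10 CPM or more, unlike the 50 CPM of the shares over all genes.

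Single genes differed far more. Zm00001d012885, with no description, had 148 CPM in library 2 and 1.17 CPM in library 1, a log2 ratio of 6.98. A metallothionein gene (Zm00001d039914, Metallothionein-like protein type 2) had 214 and 35.2 CPM, and vitamin E synthesis4 (Zm00001d017746), named for the antioxidant it helps to make, 260.3 and 44.1 CPM. In the other direction, benzoxazinone synthesis10 (Zm00001d029359), of the pathway for a defence compound of maize, had 377 CPM in library 2 and 2474 CPM in library 1, a log2 ratio of -2.71. Chlorophyll a-b binding protein 48 (Zm00001d044396) had 109.6 and 759 CPM. A Bowman-Birk wound-induced proteinase inhibitor gene (Zm00001d040027), whose protein blocks digestive proteases, had 12.16 and 155 CPM. The spread between plants cannot be seen with 1 pool a side.

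Members varied widely in how much of their RNA went to photosynthesis. In members thinned to 5000 UMIs (3238 cells in library 2 and 3948 in library 1; 72 and 20 shallower members were left out), the light reaction genes (antenna, both photosystems, electron transport and ATP synthase) took between 3.6% and 28.5% of a cell's UMIs in library 2 and between 4.77% and 31.5% in library 1, from the 5th to the 95th percentile. The most extreme cells held 0.38% and 44.1% in library 2 and 1.12% and 52.9% in library 1. The standard deviation over cells was 7.67 percentage points in library 2 and 8.32 in library 1, against 0.50 and 0.52 from counting alone. As an excess coefficient of variation (CV), which is the spread beyond counting divided by the mean, this was 0.53 and 0.52. The rule genes varied less, with an excess CV of 0.37 and 0.30, and so did the C4 and triose phosphate genes outside the rule, with 0.28 and 0.27.

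Several other transcript groups also varied widely. Wound and defence genes had an excess CV of 0.52 in library 2 and 0.49 in library 1, glutathione transferases 0.50 and 0.52, plastid ribosomal proteins 0.53 in both libraries, and cytosolic ribosomal proteins 0.58 and 0.71. Metallothioneins had 0.66 and 0.72, and aquaporins 1.12 and 1.25. The share of cytosolic ribosomal proteins reached 15.5% in the highest cell of library 2 and 10.5% in that of library 1, against 95th percentiles of 2.44% and 3.48%. Heat shock proteins and chaperones varied less, by 0.33 and 0.28. Iron acquisition genes, for the synthesis of nicotianamine and of the metal chelators made from it, were close to 0 in most cells and reached 0.60% in the highest cell of library 2 and 1.64% in that of library 1. Sheath genes outside the rule had a variance 1.29 and 1.17 times that of counting, at mean shares of only 0.031% in library 2 and 0.028% in library 1. So few UMIs keep this ratio close to counting even where the spread is wider, and their excess CV was 0.43 and 0.34. The 4 sheath genes of the rule had ratios of 3.34 and 2.59 and an excess CV of 1.71 and 1.37.

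**Figure D2:**
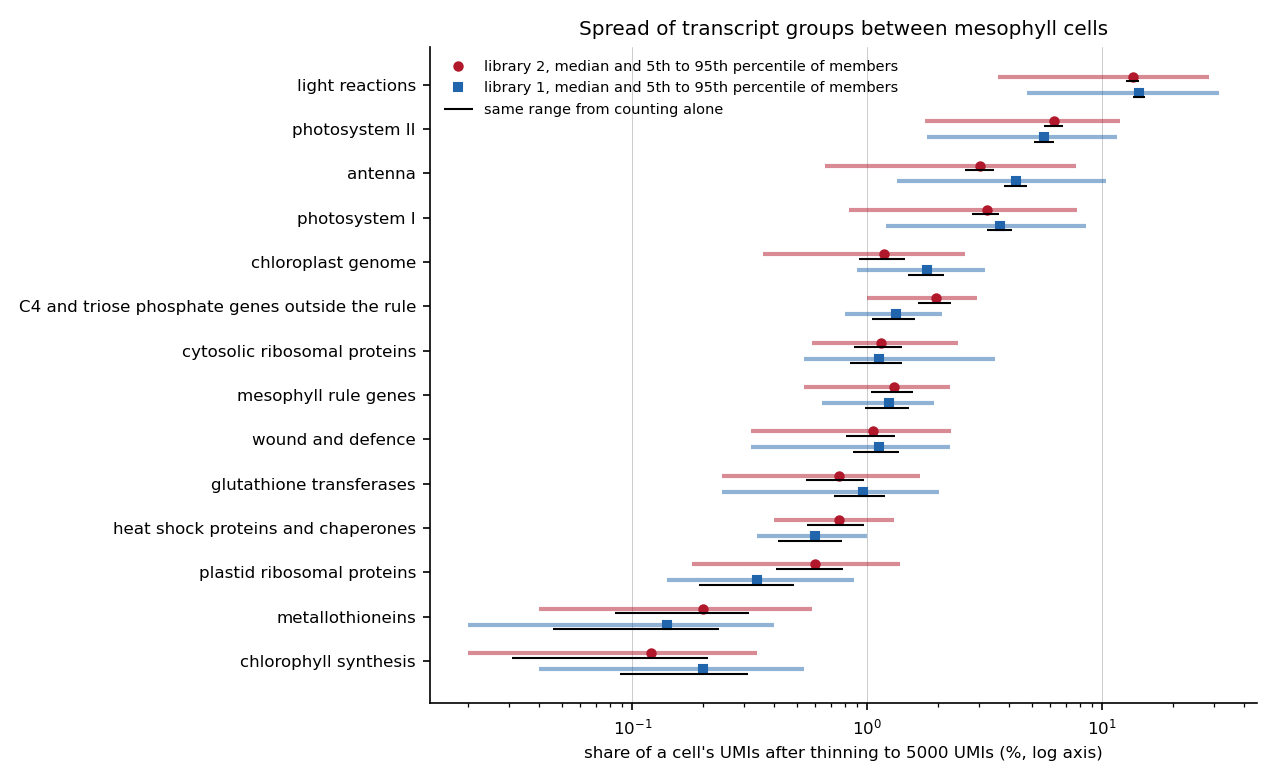
Share of a member's UMIs taken by each transcript group after thinning to 5000 UMIs (%, log axis). Coloured symbols and bars are medians and 5th to 95th percentiles of members (circles library 2, squares library 1), and black bars are the same range from counting alone around the median. The light reaction bar runs from 3.6% to 28.5% in library 2, many times the width of its counting bar, while the bars of heat shock proteins and chaperones exceed their counting bars by far less.

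For single genes, 657 had a mean of 1 UMI or more per thinned cell in both libraries. Over the genes at that level in each library, the median excess CV was 0.62 in library 2 and 0.59 in library 1. The order of genes was much alike in the libraries, with 83 of the 100 most variable genes of each shared (Spearman's rho of 0.94 across the 657 genes, which share cells and depth within a library). Cytosolic ribosomal protein genes at this level (6) had a median excess CV of 0.40 in library 2 and 0.34 in library 1, and C4 and triose phosphate genes (5) of 0.42 and 0.39. Light reaction genes lay higher, with medians of 0.78 and 0.67 for the antenna (17 genes), 0.73 and 0.65 for photosystem II (13) and 0.73 in both libraries for photosystem I (13). Wound and defence genes (12) had medians of 0.91 and 0.84, and glutathione transferases (9) of 0.88 and 0.80.

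Genes were ranked by the lower of their 2 libraries' values, and by that measure the first was Zm00001d031257, for a protein of the cupredoxin superfamily of copper proteins, with an excess CV of 2.37 in library 2 and 2.25 in library 1. It had a mean of 2.98 UMIs per thinned member of library 1, yet 32.98% of those members held a UMI of it. A Bowman-Birk type trypsin inhibitor (Zm00001d024960), a defence protein against insect digestion, followed with 2.29 and 2.13. Natterin-4 (Zm00001d004348) had 2.12 and 2.27, the highest of library 1. Of the 9 glutathione transferases that could be ranked, which join glutathione to toxic compounds, 2 were among the 12 first of 657 genes, Zm00001d029699 (glutathione transferase42, 2.103 and 2.13) and Zm00001d042098 (Glutathione S-transferase U16, 1.94 and 1.92). The others with a description were a heat shock 70 kDa protein (Zm00001d012420), the metallothionein MT1b (Zm00001d048611), knotted1 induced1 (Zm00001d022630), phytosulfokine peptide precursor1 (Zm00001d018727), which encodes a peptide hormone precursor, and a trans-cinnamate 4-monooxygenase (Zm00001d009858) of phenylpropanoid synthesis. Their excess CV lay between 1.59 and 2.09. An antenna gene outside this rule, Zm00001d044399 (photosystem II light harvesting complex gene B1B2), was seen afterwards to reach 2.68 in library 2, the highest there, but 1.54 in library 1.

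At the other end, PGR5-like protein 1B (Zm00001d019454), which takes part in cyclic electron flow around photosystem I, was the least variable gene with a description. Its excess CV was 0.26 in library 2 and 0.22 in library 1, and 99.9% of thinned members of library 1 held a UMI of it. Also among the 12 least variable were a gene for an SMAD/FHA domain protein (Zm00001d044666, 0.26 and 0.28) and albino or pale green mutant1 (Zm00001d031071, 0.29 and 0.26). The other 9 had no description. Zm00001d021526, the most abundant of them, had a mean of 11.5 UMIs in library 2 and 10.4 in library 1 with an excess CV of 0.28 and 0.24.

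**Figure D3:**
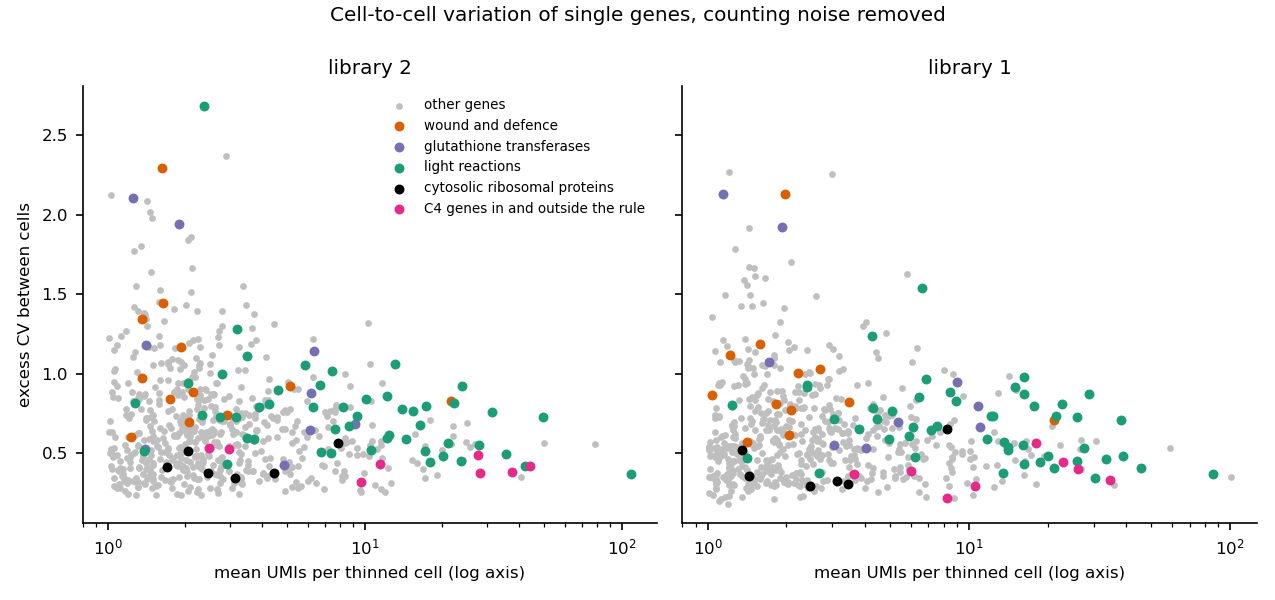
Excess CV between members against mean UMIs per thinned cell (log axis) for 657 genes, library 2 on the left and library 1 on the right, with gene groups in colour. Wound and defence genes and glutathione transferases hold several of the highest points, and C4 genes lie low at high means.

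Some genes were confined to few members. The share of a gene's UMIs that fell in the 1% of members with most of it had a median of 9.34% in library 2 and 7.11% in library 1 over 5753 genes with at least 500 UMIs in each. For Zm00001d029099, with no description, this share was 100% in library 2, where 17 members held all 1385 UMIs, and 99.4% in library 1, where 48 members held 1331 UMIs and a single cell held 1151 of them. Pathogenesis related protein5 (Zm00001d031158), a defence protein, had 52.4% and 41.6%. The other 6 of the 8 most concentrated genes had between 37.6% and 54.1%, and 3 of them have a description, an MYB-domain protein (Zm00001d046981), LOB domain protein 11 (Zm00001d028721) and Cis-zeatin O-glucosyltransferase 1 (Zm00001d002707), which stores the hormone zeatin as a glucoside.

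The cells that carried these genes had shares of the rule genes in the range of other members, which the rule itself partly sets. They were picked by raw UMIs, so deeper cells were favoured. Their median depth was 8913 to 13763 UMIs in library 2 and 19866 to 25909 in library 1, against 9448 and 19083 over all members. Their median share of UMIs from the rule genes lay between 1.04% and 1.47% in library 2 and between 0.87% and 1.37% in library 1, against 1.32% and 1.24% over all members. Most pairs of genes shared few of these cells. The largest overlap was 8 cells between Zm00001d006069 and Zm00001d002707 in library 2, 24.2% of the 33 cells of each. In library 1 no pair shared more than 4 of 40 (10%). Unrelated sets of 1% of members would share about 1% of their cells, so these largest overlaps lay above that share. For 7 of the 8 genes, the light reaction share of these cells was below that of all members in both libraries, with medians between 5.86% and 11.03% in library 2 against 13.3% over all members, and between 5.78% and 10.8% in library 1 against 14.4%. For the 17 cells with Zm00001d029099 in library 2 it was above, at 20.3%. In library 1 its cells held a median of 1.5 UMIs of it, 21 of 40 of them lay above the median light share, and no more is read from them.

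The next comparison asked what else changed with the light reaction share. Members of each library were ordered by this share and cut at its median into high-share cells (1655 in library 2 and 1984 in library 1) and low-share cells (the same numbers). The light reaction genes were then taken out and UMIs were summed per library and class. The share was 20.5% in high-share against 8.23% in low-share cells of library 2, and 22.5% against 9.22% in library 1. These classes are ranges of a continuous score, with 433 and 548 members within 10% of the cut's value on either side. Depth was close, with median UMIs of 9823 in high-share and 9060 in low-share cells of library 2, and of 19414 and 18784 in library 1. The chloroplast genome's median share was 0.93% in high-share and 1.44% in low-share cells of library 2, and 1.76% and 1.87% in library 1, and its part in the result was not tested. Because the cells were sorted by their own counts, a called gene is one that went with the score in both libraries, not one that responded to a treatment.

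Of 17277 genes tested, 6193 passed an adjusted p of 0.05 (35.8%), 2971 higher (17.2%) and 3222 lower (18.6%) in high-share cells (edgeR's quasi-likelihood test with library as a term, Benjamini-Hochberg adjustment). Without the library term 0 genes passed, with 2556 at an unadjusted p under 0.05, and DESeq2 with the term called 4068. Among called genes, 1315 were over 2-fold higher and 1788 over 2-fold lower. Plastid ribosomal proteins rose as a group, with 26 of 27 genes higher and 0 lower, and a median log2 fold change of 0.74 against 0.01 over all genes. In chlorophyll synthesis 7 of 9 genes were higher and 1 lower (median 1.14), and of 12 aquaporins 10 were higher and 0 lower (median 0.92). Wound and defence genes went the other way, with 57 of 68 lower and 6 higher (median -1.20), and so did glutathione transferases, with 13 of 19 lower and 3 higher (median -0.87). Most lists came from cluster marker tables of these data, so their movement as groups is partly set by that choice. Of 47 genes that the study lists as enriched in protoplasts, 22 were higher and 6 lower in high-share cells (median 0.38), and their part in the result was not tested. The study gives an identical list for mesophyll and sheath. In the comparison with sheath cells below, 45 of these 47 genes were lower in members and 0 higher (median -2.65), so the list is also rich in sheath transcripts.

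C4 genes outside the rule were divided. PDK1, the most abundant, had a log2 fold change of 0.06 (adjusted p = 0.664). Of the 8 C4 and triose phosphate genes outside the rule, 5 were higher, among them carbonic anhydrase3 (Zm00001d044096, log2 fold change 0.70), and 2 were lower, Beta carbonic anhydrase 4 (Zm00001d044095, -2.38) and a phosphoenolpyruvate/phosphate translocator (Zm00001d039674, -1.90). Both were low, between 10.3 and 82.2 CPM in either class. Cytosolic ribosomal proteins differed between the libraries in direction, with a list median of 0.20 in library 2 and -0.49 in library 1, and 192 of their 226 genes did not pass. Heat shock proteins and chaperones were divided, with 16 higher and 11 lower of 45 tested. Sheath transcripts moved with the score as well. The 4 sheath genes of the rule stood at 221 CPM in high-share and 87.3 CPM in low-share cells of library 2, and at 187 and 121 CPM in library 1. Their part in the result was not tested beyond a repeat with members that held no sheath UMI. In it 4198 genes were called, and 4001 of them were among the 6193. Of the 6193, called in the repeat or not, 15 had the opposite direction there.

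Among leading transcripts, the described ones outside photosynthesis were lower in high-share cells. Thioredoxin h homolog2 (Zm00001d019034) fell by 0.95 on the log2 scale (adjusted p = 5.35e-09), glutathione peroxidase (Zm00001d002704) by 0.94 (4.87e-08) and the 12-oxo-phytodienoic acid reductases Zm00001d044906 and Zm00001d044908 by 1.01 (1.89e-08) and 0.84 (2.94e-07). The leading defence transcript, endochitinase precursor4 (Zm00001d017152), whose protein cuts chitin of fungal walls, fell by 1.24 (1.90e-09). Within the same list lipoxygenase10 (Zm00001d053675), of the oxylipin pathway, was higher by 0.69 (1.87e-04). Glutathione transferase27 (Zm00001d011154) was higher by 0.75 (1.68e-05), against the direction of most of its family.

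The largest changes were in genes of low level. Zm00001d046510, with no description, had 32.1 CPM in high-share and 1.55 CPM in low-share cells of library 2, and 40.2 and 3.02 CPM in library 1 (log2 fold change 3.93, SE 0.22, adjusted p = 4.83e-11). A CONSTANS-like gene, CO5 (Zm00001d017176), of a family of light- and clock-linked regulators, had 37.9 against 4.43 CPM in library 2 and 42.6 against 4.11 CPM in library 1 (3.26, SE 0.20, 9.77e-11). A histone H2B gene (Zm00001d047788), for a core protein of chromatin, had 51.7 against 6.20 CPM and 79.3 against 9.87 CPM (3.03, SE 0.18, 9.77e-11). On the lower side, phospholipase D7 (Zm00001d029397), of a family that cleaves membrane lipids, had 2.34 CPM in high-share and 25.9 CPM in low-share cells of library 2, and 2.96 and 24.7 CPM in library 1 (-3.21, SE 0.21, 3.04e-10). An AP2/EREBP transcription factor gene (Zm00001d053195) had 6.503 against 54.2 CPM and 4.61 against 43.4 CPM (-3.16, SE 0.19, 9.77e-11). An amino acid permease gene (Zm00001d025437), LHT1 (Zm00001d035162), named for an amino acid transporter, and a second Bowman-Birk trypsin inhibitor (Zm00001d024996) fell by 3.15, 2.78 and 2.80. Every one of these genes had its 2 high-share values on the same side of its 2 low-share values.

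Sorted more finely, the groups changed in steps along the whole range. With members in 10 equal bins of light reaction share, the bins ran from 3.48% to 29.4% of UMIs in library 2 and from 4.59% to 32.4% in library 1. As a share of the UMIs that remained without the light reaction genes, plastid ribosomal proteins were 1.403% in the highest and 0.31% in the lowest bin of library 2, and 0.83% and 0.25% in library 1, with an increase at each of the 9 steps in both. Chlorophyll synthesis genes were 0.41% against 0.059% in library 2 and 0.72% against 0.086% in library 1, and aquaporins 0.33% against 0.038% and 0.56% against 0.12%, again with 9 increases of 9. Wound and defence genes were 0.68% in the highest and 2.06% in the lowest bin of library 2, and 0.68% and 2.11% in library 1, with 9 decreases of 9. Glutathione transferases were 0.55% against 1.43% and 0.53% against 1.86%, also with 9 decreases. The C4 and triose phosphate genes as a sum were also higher at the high end, at 2.99% against 1.42% in library 2 and 2.27% against 1.09% in library 1. PDK1, the most abundant of them, did not pass in the test above. These shares are not TMM-scaled, unlike the test, and were not tested.

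**Figure D4:**
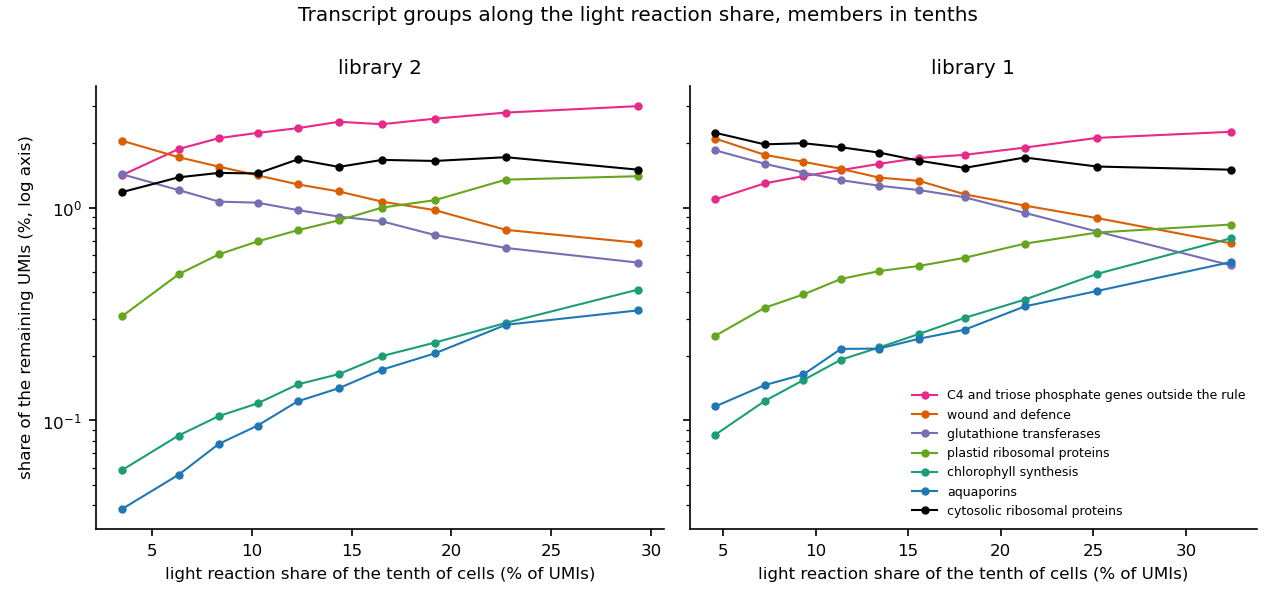
Share of the UMIs outside the light reactions taken by each transcript group (%, log axis) in 10 equal bins of members ordered by light reaction share (horizontal axis, % of UMIs in the bin), library 2 on the left and library 1 on the right, each point the sum over a bin's cells. Wound and defence genes and glutathione transferases decline at every step in both libraries, while chlorophyll synthesis and plastid ribosomal proteins climb at every step.

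Members were also sorted by wound and defence genes. Over thinned cells, the share of these genes had a Spearman's rho of -0.73 in library 2 and -0.76 in library 1 with the light reaction share, and of 0.68 and 0.73 with that of glutathione transferases (3238 and 3948 cells, which share a library, and whose shares are parts of 1 total). Cut at the median, the share was 1.60% in high-wound and 0.65% in low-wound cells of library 2, and 1.63% and 0.70% in library 1. Only 371 members of library 2 and 408 of library 1 were high in both scores, 22.4% and 20.6% of the high cells of each score. Since the cells are largely those of the cut by light reaction share, the calls are not a second line of evidence.

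Of 17438 genes, 5868 passed (33.7%), 3352 higher (19.2%) and 2516 lower (14.4%) in high-wound cells. Without the library term 0 passed, with 2838 at an unadjusted p under 0.05, and DESeq2 with the term called 4186. Glutathione transferases had 14 of 19 genes higher and 2 lower, with a median log2 fold change of 1.15 against -0.01 over all genes. All 21 antenna genes and all 9 genes of electron transport and ATP synthase were lower, as were 15 of 16 genes of photosystem II and 14 of 15 of photosystem I, with medians between -1.14 and -0.84. Plastid ribosomal proteins had 26 of 27 genes lower (median -0.74) and aquaporins 9 of 12 (median -0.92). The 4 sheath genes of the rule stood at 106 CPM in high-wound and 204 CPM in low-wound cells of library 2, and at 124 and 185 CPM in library 1. Their part in the result was not tested beyond a repeat with members that held no UMI of them. In it 4145 genes were called, 3940 of them among the 5868. Of the 5868, called in the repeat or not, 11 had the opposite direction there. Of the genes listed as enriched in protoplasts, 17 of 46 tested were lower and 7 higher in high-wound cells (median -0.28), and their part was not tested. PDK1 did not pass, at 0.08.

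The photosystem genes fell by unequal amounts in high-wound cells. Photosystem I reaction center6 (Zm00001d018797) fell by 1.54 on the log2 scale and the photosystem II W gene (Zm00001d043299) by 1.37, while photosystem I H subunit1 (Zm00001d038984) fell by 0.53 and Photosystem I reaction center subunit IV A (Zm00001d019518) had -0.14 (adjusted p = 0.175). Among the antenna, Light harvesting complex mesophyll7 (Zm00001d039040) fell by 2.01 and light harvesting chlorophyll a/b binding protein6 (Zm00001d026599) by 0.34. The order of these changes is within 1 fit, and differences between genes were not tested.

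The largest rises in high-wound cells were in LHT1 (Zm00001d035162), with 20.8 CPM in high-wound and 1.21 CPM in low-wound cells of library 2, and 69.2 and 3.37 CPM in library 1 (log2 fold change 4.29, SE 0.19, adjusted p = 1.00e-05). The AP2/EREBP gene Zm00001d053195 (4.13) and the MYB-domain gene Zm00001d046981 (4.08) followed, then a nucleotide-diphospho-sugar transferase gene (Zm00001d012850, 4.05). Alternative oxidase3 (Zm00001d002434), a mitochondrial oxidase that bypasses part of the respiratory chain, had 24.7 against 1.27 CPM in library 2 and 44.4 against 3.35 CPM in library 1 (3.89, SE 0.20, 1.00e-05). Phospholipase D7 rose again (Zm00001d029397, 3.603). The largest fall, -4.90 in Zm00001d029099, rests on few cells, since 17 members of library 2 and mainly 1 member of library 1 held its UMIs, and between the highest and lowest quartiles of cells it did not pass (adjusted p = 0.0885). After it, the falls were led by Zm00001d046510 at -3.41, with 1.95 against 24.8 CPM and 3.32 against 32.5 CPM, and by Zm00001d014778 at -3.15. The CONSTANS-like gene CO5 (Zm00001d017176) and the histone H2B gene (Zm00001d047788) fell by 2.80 and 2.78.

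The cytosolic ribosomal protein score gave a weaker pattern. The share of these genes was 1.74% in high-ribosomal and 0.85% in low-ribosomal cells of library 2, and 2.15% and 0.82% in library 1. Median UMIs were 9522 and 9391 in library 2, and 20138 and 18076 in library 1. Median detected genes were 2758 and 2557 in library 2, and 4379 and 3819.5 in library 1. The part of depth was not tested beyond the repeat with thinned cells. Of 17140 genes, 837 passed (4.88%), 643 higher (3.75%) and 194 lower (1.13%). Without the library term 0 passed, with 431 at an unadjusted p under 0.05. DESeq2 called 242, and 409 passed after thinning of each cell to 5000 UMIs. A ribosomal protein gene outside the list (Zm00001d042772) had 31.1 CPM in high-ribosomal and 7.39 CPM in low-ribosomal cells of library 2, and 60.97 and 11.01 CPM in library 1 (log2 fold change 2.29, SE 0.18, adjusted p = 5.92e-06). An elongation factor 1-alpha gene (Zm00001d009868), which brings aminoacyl-tRNA to the ribosome, rose by 1.63 and a Basic transcription factor 3 gene (Zm00001d032668) by 1.74. A nucleoside diphosphate kinase gene (Zm00001d029968), of an enzyme that makes nucleoside triphosphates, had 131.95 against 54.7 CPM and 227 against 47.8 CPM (1.77, SE 0.22, 1.56e-04).

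Among genes lower in high-ribosomal cells, antenna gene Zm00001d044399 had 149.7 CPM in high-ribosomal and 818 CPM in low-ribosomal cells of library 2, and 829 and 1746 CPM in library 1 (-1.76, SE 0.30, adjusted p = 0.00213), but did not pass with DESeq2 (adjusted p = 0.611). Nor did Chlorophyll a-b binding protein 48 (Zm00001d044396), at -1.66 in edgeR's fit and an adjusted p of 0.332 with DESeq2. Hemoglobin1 (Zm00001d048020) had 28.1 against 90.5 CPM and 96.8 against 233 CPM (-1.47, SE 0.18, 1.56e-04). Few genes of the other groups passed. Of the antenna 3 of 21 genes were lower, of photosystem II 0 of 15 tested passed, of plastid ribosomal proteins 1 of 27 was higher, and of heat shock proteins and chaperones 7 of 45 were higher and 1 lower. The median for wound and defence genes was -0.54 in library 2 and 0.01 in library 1, and that for glutathione transferases -0.54 and 0.17. The largest fold change among the named genes, 6.5 for Zm00001d029099, rests in library 1 on the single cell with 1151 UMIs.

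**Figure D5:**
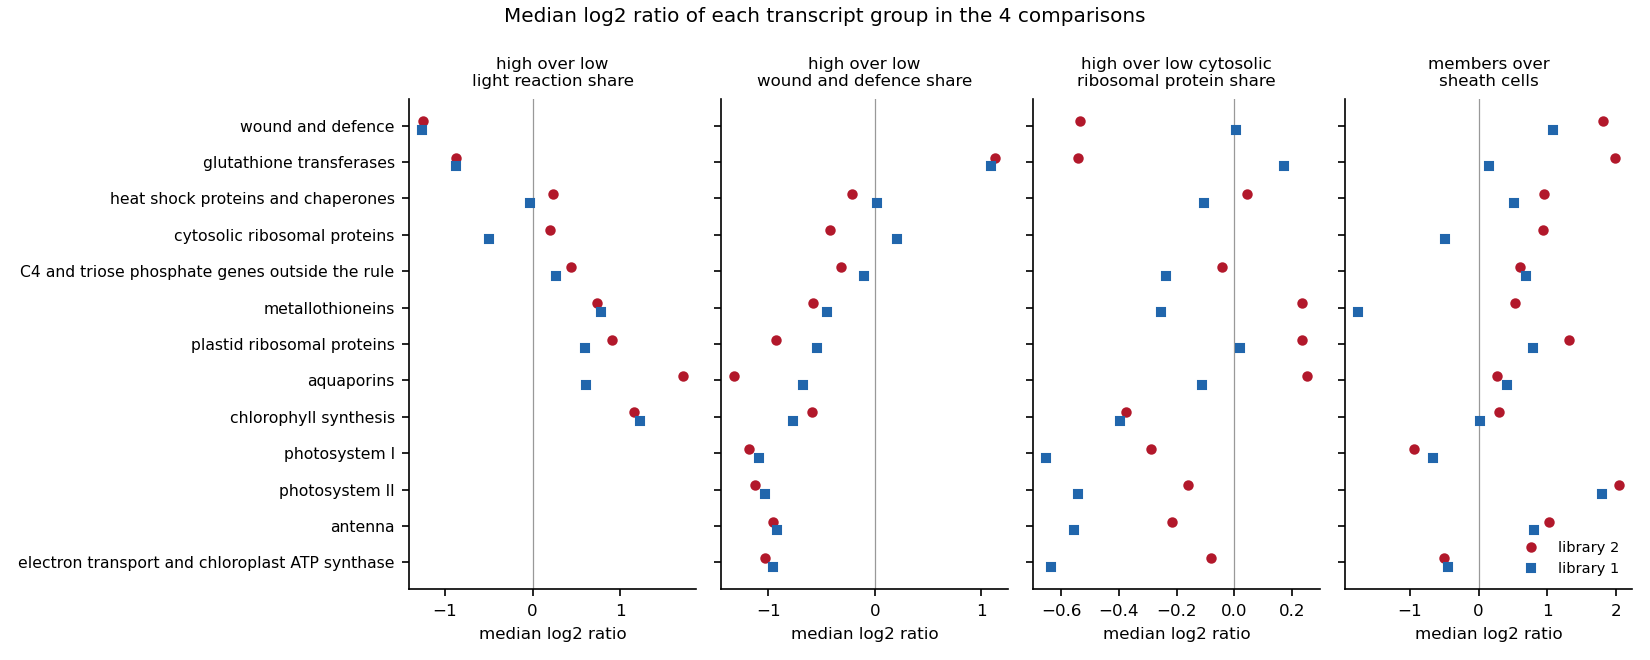
Median log2 ratio over the genes of each transcript group in each library (circles library 2, squares library 1) for the 4 comparisons, with genes of the score left out of their own panel. In the panels for light reaction and wound and defence share the libraries lie close together for most groups, whereas in the panel for cytosolic ribosomal protein share wound and defence genes, glutathione transferases, chaperones, metallothioneins and aquaporins lie on opposite sides of 0.

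Members were last set against the 80 sheath cells, on genes the rule did not use. Of 16478 genes, 1470 passed (8.92%), 680 higher (4.13%) and 790 lower (4.79%) in members, all of them by more than 2-fold. The sheath sums held 396300 UMIs in library 2 and 1461232 in library 1, far fewer than those of members. Of the 16 photosystem II genes 12 were higher in members and 1 lower, with a median log2 fold change of 1.94 against 0.23 over all genes. Of the 21 antenna genes 7 were higher and 2 lower (median 0.72), whereas of the 15 photosystem I genes 0 were higher and 3 lower (median -0.74). Electron transport and ATP synthase had 1 of 9 genes higher, ferredoxin1 (Zm00001d035001), the soluble acceptor of electrons from photosystem I, at 3.72.

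The extrinsic proteins of the water-splitting complex were among them. Oxygen-evolving enhancer protein 2-1 (Zm00001d018779) had 5765 CPM in members and 65.6 CPM in sheath cells of library 2, and 5538 and 252 CPM in library 1 (log2 fold change 5.31, adjusted p = 0.0244). The photosystem II W gene (Zm00001d043299) had 10264 and 283 CPM in library 2, and 7696 and 626 CPM in library 1 (4.37, 0.0245). Photosystem I H subunit1 (Zm00001d038984) had 7070 CPM in members and 11269 CPM in sheath cells of library 2, and 9148 and 15076 CPM in library 1 (-0.70, 0.104), a difference that did not pass. Of C4 genes, PDK1 was higher at 2.06 (0.0176) and PDRP1 at 5.77 (0.0267), and carbonic anhydrase3 (Zm00001d044096) had 6.18 (0.0549), just short of the threshold, with 7684 against 12.6 CPM in library 2 and 4637 against 181 CPM in library 1. PGR5-like protein 1B (Zm00001d019454) was higher at 5.48 (0.0255).

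Of the 68 wound and defence genes, 19 were higher in members and 8 lower (median 1.28). Chitinase2 (Zm00001d036370) had 10835 UMIs in members and 0 in sheath cells of library 2, at least 41.6-fold higher against the 3 counts that a count of 0 allows in that library, and 25526 and 2 UMIs in library 1. Lipoxygenase10 (Zm00001d053675) was higher at 5.17 (0.0107). The 6 genes with the largest fitted fold changes, Zm00001d048635, Zm00001d044677, Zm00001d000829, Zm00001d002796, Zm00001d004102 and Zm00001d034027, have no description and had 0 UMIs in sheath cells of both libraries. They were at least 3.52-fold to 9.98-fold higher in members of library 2 and at least 11.4-fold to 25.6-fold higher in library 1. None of the 6 passed with DESeq2, with adjusted p between 0.201 and 0.320. Of the cytosolic ribosomal proteins 1 of 226 genes was called, and their list median was 0.94 in library 2 and -0.49 in library 1.

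On the lower side were sheath genes outside the rule, all 10 of them, with a median of -7.34. The study lists most of them as enriched in the sheath cluster of these data, so their direction was largely set by that choice. The largest falls included CP12-1 (Zm00001d044925), a small regulator of Calvin cycle enzymes, with 0.64 CPM in members and 2269 CPM in sheath cells of library 2, and 0.41 and 775 CPM in library 1 (-11.30, SE 0.45, adjusted p = 0.00577). SWEET13a had 1.28 against 1549 CPM and 0.63 against 2558 CPM (-11.14, SE 0.68, 0.00893). An aquaporin of the NOD26-like kind (Zm00001d037228) had 0.16 against 954 CPM and 0.51 against 707 CPM (-11.12, SE 0.66, 0.00893), while 8 of the 12 aquaporins did not pass.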

How the data were processed

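The authors made the deposited values with Cell Ranger 3.1.0, which per the file headers wrote the matrices and which aligned reads with STAR to B73 RefGen_v4 with its Ensembl annotation. The deposited values are raw UMI counts per gene and barcode, not normalized or pooled. The labels' processing notes also name Seurat 3.1. The members and gene lists were chosen with earlier results of these data known. Most lists come from the study's cluster marker tables, so gene descriptions and symbols are the study's. Other genes are given by ID. Of 44146 maize IDs, 0 matched the reference table of a newer assembly, so no sequence or position is given.

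Cells are not replicates. Counts were summed per library and class (4 sums) and tested with edgeR 4.0.16 (quasi-likelihood test, TMM scaling, filterByExpr, Benjamini-Hochberg adjustment over all genes tested, threshold 0.05). Library was a term because both classes came from the same library. The SE is the absolute log2 fold change over the square root of F. With 2 libraries 1 residual degree of freedom remained. The p-values measure only how far the class difference varied between these 2 pools, with each gene's spread drawn toward that of other genes by the fit. CPM of tested classes are TMM-scaled, and those of leading transcripts and of the photosystem and carbonic anhydrase genes in the sheath comparison are on total UMIs. Alternatives were DESeq2 1.42.0, other filters, other cuts of the score and thinned cells. A count of 0 was read as allowing 3 counts. That floor covers counting error only. Scripts were tested on simulated data. Genes named were the 20 leading ones, the 12 most and 12 least variable, the 8 most concentrated, the 8 largest and 8 smallest changes of each test at 20 CPM or more in a class of each library, the 6 largest and 6 smallest library ratios at 100 CPM or more, and the list members with most UMIs. Other list genes were named after their values were seen. Reads shared by near-identical copies, such as the antenna, metallothionein and ribosomal protein genes, may have been split by the counting.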

Additional observations from a re-analysis of the deposited data

How the results depend on the processing

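Alternatives were compared gene by gene for the 16 genes with the largest changes of each of the 4 tests, and none of these reversed. The alternative fits covered all genes that met their filters, but other named genes were not compared one by one. Of the values, 294 kept their side of the threshold and 59 lost it. With 1 library left out, 108 moved by less than the standard deviation of the 2 library values and 20 by more. The joint fit usually lies between those 2 values, so a small move is nearly set in advance and these counts do not measure stability. The larger moves include genes with a count of 0 in a class, such as Zm00001d048635. With members that held no sheath UMI, an alternative chosen after seeing the data, 48 named values kept their side. Among all genes called in the main fit, called in the alternative or not, 15 of 6193 changed direction there for the light reaction score and 11 of 5868 for the wound score. With thinned cells, 1 did so for each of these 2 scores. For the ribosomal score the count of called genes, 837, became 242 with DESeq2, 363 with no filter beyond 1 UMI in any sum and 409 with thinned cells. For the light reaction score 6193 became 4068 with DESeq2. Without the replicate block (library term), 0 genes were called for each of the 3 scores, with lowest adjusted p of 0.93, 0.12 and 0.07 for the ribosomal, light reaction and wound scores, while 1451 in place of 1470 were called between members and sheath cells. The block is set by the design, since both classes come from 1 library. Between libraries, genes over 2-fold higher in library 2 numbered 306 with TMM scaling and 121 at 100 CPM or more, and those lower 89 at 100 CPM or more. Members numbered 6967 to 8983 under other limits. With 1 library left out, the 10 leading genes took 9.99% to 10.4% of UMIs and the median excess CV was 0.59 to 0.62. With 1 library left out no test remains. The comparison with sheath cells rests on 25 cells in library 2 and 55 in library 1. At 10 UMIs or more in every sum, only 3811 of its 16478 genes could be tested. Of these 1545 passed, 609 of them among the 1470 of the main fit. The rest of the 1470 had fewer than 10 UMIs in a sum or did not pass there.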
